A study of Homo sapiens with 6 samples.

Results

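The class I olfactory receptors of the OR51, OR52 and OR56 families were examined as genes that a cell line of non-olfactory origin would be thought to leave silent, in order to see where the low end of the array signal lay and how much it varied. The members were all genes whose symbol is 1 of those 3 family names followed by letters and digits, without pseudogenes ending in P, and with a probe set annotated to that gene alone. They numbered 47 of the 14232 genes that had a probe set of their own: 19 in OR51, 23 in OR52 and 5 in OR56. Each was represented by a single probe set. RefSeq (GRCh38.p14) lists 55 protein-coding genes with such symbols, and the other 8 had no probe set of their own.

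The study measured MO3.13, a human line that its labels call an oligodendroglioma line and that is otherwise known as a hybrid of oligodendrocytes and rhabdomyosarcoma cells. There were 3 arrays of cells given recombinant mouse Klotho at 0.4 µg/mL for 3.5 h in DMEM without serum, and 3 arrays of control cells. All were grown in DMEM with 10% fetal bovine serum, penicillin, streptomycin, glutamine and pyruvate. No serum-free incubation is described for the control cells, so Klotho and the change of medium cannot be told apart. Nothing in the labels tells separate cultures from repeat hybridisations, so p-values measure only the spread between these arrays, which may be technical. Klotho is the co-receptor of the hormone FGF23.

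Olfactory receptors are G protein-coupled receptors of the sensory neurons of the nose, where they pass the odorant signal to the G protein subunit encoded by GNAL, to adenylyl cyclase and to cyclic nucleotide-gated channels. Each such neuron uses a single receptor gene and keeps the others packed in heterochromatin. Class I receptors resemble the receptors of fish and many answer carboxylic acids, whereas class II receptors are found in land vertebrates. A few class I genes are known outside the nose. OR51E2 and OR51E1 are prostate-enriched receptors of fatty acids. By position, the OR51B genes lie beside the beta-globin genes.

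Windows at the RefSeq gene start of 3 receptors are printed because the results turn on these genes: OR52N2 had the smallest p among the receptors, OR52W1 the highest signal and OR52E2 the lowest. The windows are 300 bases around the RefSeq gene start (GRCh38.p14), most of it upstream, 5′ to 3′, with CG pairs in capitals. They lie at chr11:5808674-5808973 on the plus strand, chr11:6198974-6199273 on the plus strand and chr11:5059578-5059877 on the minus strand.
OR52N2: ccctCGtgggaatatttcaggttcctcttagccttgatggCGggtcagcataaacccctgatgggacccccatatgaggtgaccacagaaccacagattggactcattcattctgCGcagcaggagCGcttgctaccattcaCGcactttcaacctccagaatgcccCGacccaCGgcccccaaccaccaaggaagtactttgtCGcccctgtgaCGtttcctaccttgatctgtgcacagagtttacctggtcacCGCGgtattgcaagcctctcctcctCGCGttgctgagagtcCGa
OR52W1: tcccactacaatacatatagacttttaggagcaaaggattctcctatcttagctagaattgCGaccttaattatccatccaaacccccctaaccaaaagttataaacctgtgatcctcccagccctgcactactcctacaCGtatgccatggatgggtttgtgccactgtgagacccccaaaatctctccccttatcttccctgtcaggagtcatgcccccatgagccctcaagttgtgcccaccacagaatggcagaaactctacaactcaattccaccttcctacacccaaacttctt
OR52E2: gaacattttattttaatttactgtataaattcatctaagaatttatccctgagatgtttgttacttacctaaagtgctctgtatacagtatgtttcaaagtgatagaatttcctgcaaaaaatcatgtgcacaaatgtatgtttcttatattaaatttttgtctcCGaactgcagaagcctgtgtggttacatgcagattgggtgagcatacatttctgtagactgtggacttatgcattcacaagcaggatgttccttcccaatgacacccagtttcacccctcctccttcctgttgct

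The OR52N2 window held 14 CG pairs, the most of any receptor window given, that of OR52W1 held 2 and that of OR52E2 held 1. The RefSeq spans are 963 bases for OR52W1 and 978 for OR52E2, against 12560 for OR52N2. The windows of OR52W1 and OR52E2 may thus lie at the start of the coding region and not at a transcription start. The counts may therefore compare unlike places and are no contrast of promoters. Among the windows of 27305 genes the median was 13, 95.7% held at least 1 CG pair, and 49.2% held 14 or more. Only 34 of the 47 receptors (72.3%) had a window, so a comparison of CG content over the receptors as a set is void. The count is a description of these letters and not a measure of methylation.

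Signal is given on the log2 scale of the authors' RMA values, which carry no detection call. Probe sets bind their targets with different strength, so a level here places a probe set in the range of signals and does not measure transcripts, and no value is per length. The 47 receptors had mean signals over the 6 arrays between 2.05 and 5.50, with a median of 3.56 and quartiles of 2.97 and 4.36. The band spans 3.46 log2 units, an 11-fold range of signal. There were 14 receptors below 3, 30 from 3 to 5, and 3 above 5. Of the 47, 44 lay below 5.04, the lower quartile of all genes, whose median was 6.59. These values do not contradict the label of silent genes, but without detection calls they do not show that any receptor is off.

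**Figure D1:**
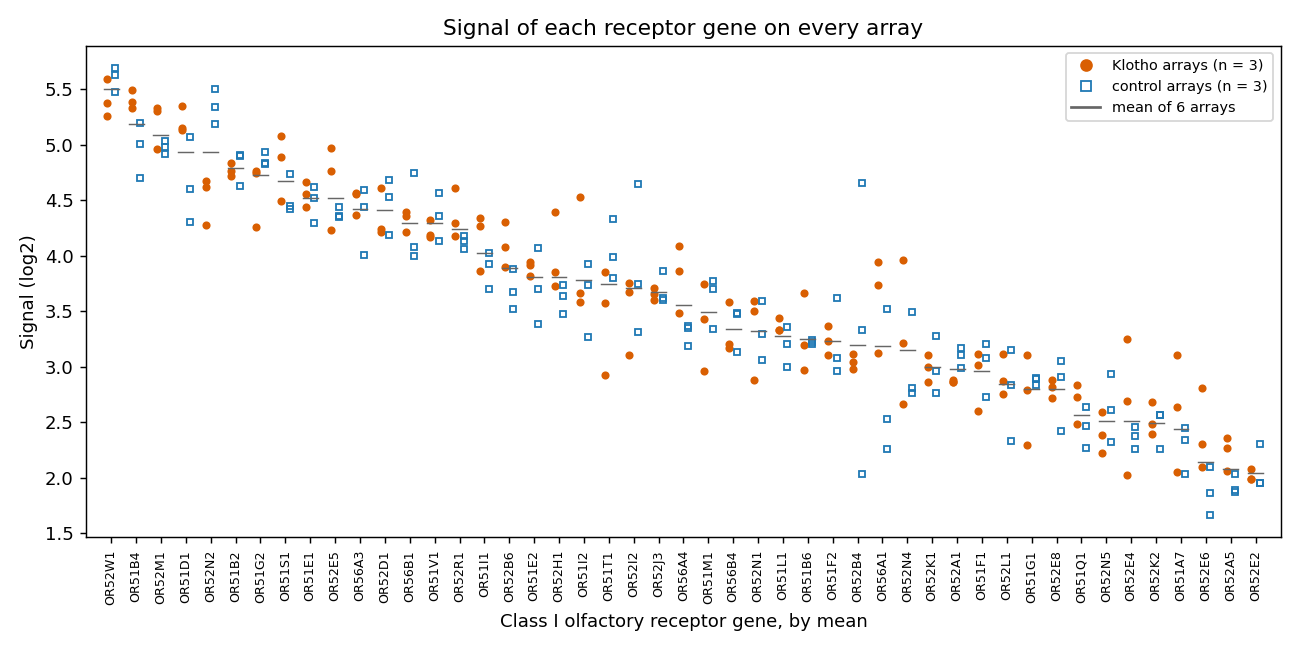
Signal (log2) of each of the 47 class I receptors, ordered by mean, with a point for each of 3 Klotho arrays and 3 control arrays and a bar at the mean of the 6. The means run from 5.50 for OR52W1 to 2.05 for OR52E2, and OR52B4 has the widest spread, from 2.04 to 4.66 among the control arrays.

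The top of the band held OR52W1, OR51B4 and OR52M1. OR52W1 read 5.26, 5.59 and 5.38 on the Klotho arrays, against 5.63, 5.47 and 5.69 on the control arrays. Its groups overlapped, and its mean stood at the 31.9th percentile of all genes. OR52M1 read 5.33, 5.31 and 4.96 on the Klotho arrays, against 4.92, 4.98 and 5.03 on the control arrays, again with overlap.

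The bottom held OR52E2, OR52A5 and OR52E6, each below the first percentile of all genes. OR52E2 read 1.99, 2.08 and 1.99 on the Klotho arrays, against 2.31, 1.95 and 1.95 on the control arrays. The groups overlapped, and the first control array was the highest. By family, the 19 OR51 genes had levels of 2.44 to 5.19 with a median of 3.78, and the 23 OR52 genes 2.05 to 5.50 with a median of 3.19. The 5 OR56 genes lay between 3.19 and 4.42, with a median of 3.56, and reached neither end.

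The 2 prostate-enriched receptors and the OR51B genes ranked from near the top to below the middle of the 47. OR51B4 ranked 2 at 5.19, OR51B2 6 at 4.79, OR51E1 9 at 4.52, OR51E2 18 at 3.81 and OR51B6 29 at 3.25. OR51E2, the prostate-enriched receptor of short fatty acids, read 3.82, 3.92 and 3.95 on the Klotho arrays, against 3.39, 4.07 and 3.70 on the control arrays. The Klotho values lie inside the control range, and the difference was 0.18 (95% interval -0.24 to 0.59). It was 0.01 without control array 1 and 0.35 without control array 2. OR51E1, its neighbour on the chromosome, read 4.44, 4.55 and 4.67 on the Klotho arrays, against 4.62, 4.52 and 4.30 on the control arrays, a difference of 0.07 that turned to -0.02 without control array 3. OR51B5 had no probe set of its own and is given no value.

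The receptors' medians were nearly the same on 5 of the 6 arrays. The median over the 47 receptors was 3.67, 3.60 and 3.59 on the Klotho arrays, against 3.39, 3.59 and 3.60 on the control arrays. Control array 1 stood lowest. The group means of these medians were 3.62 ± 0.05 with Klotho and 3.53 ± 0.12 in control (SD, n = 3 each), so the difference was smaller than the spread among the control arrays.

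The median over all 14232 genes ran the other way on the arrays at the ends. It was 6.53, 6.56 and 6.59 on the Klotho arrays, against 6.66, 6.56 and 6.61 on the control arrays. Control array 1 thus had the lowest receptor median and the highest gene median, and Klotho array 1 the highest receptor median and the lowest gene median. The distance between both medians was 3.27 on control array 1 and 2.85 on Klotho array 1, and between 2.96 and 3.01 on the other 4. The medians of 173 class II receptors were also lowest on control array 1, at 3.21, and were 3.33 on both Klotho array 1 and control array 2. What sets these distances was not tested.

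**Figure D2:**
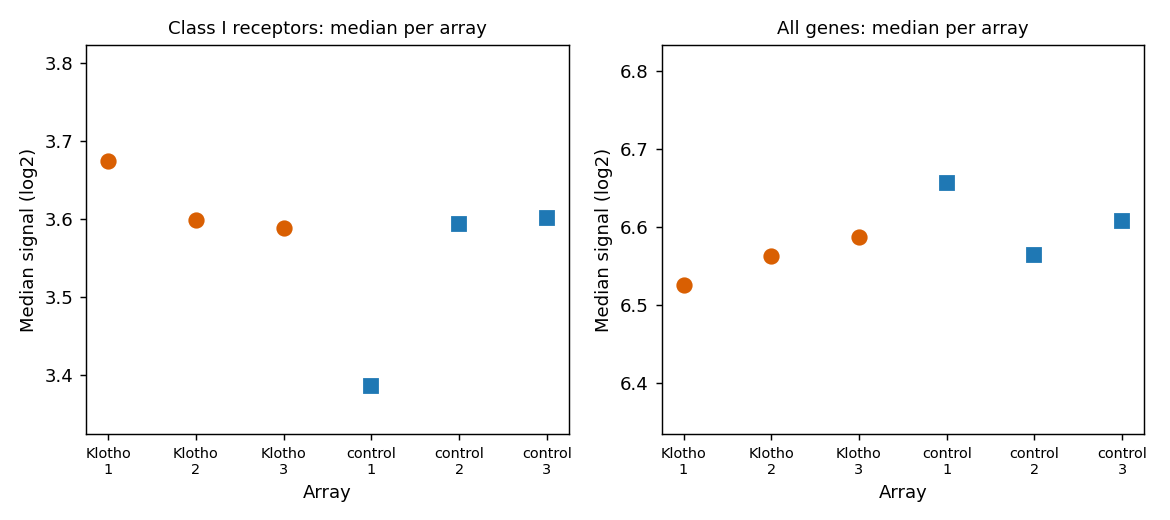
Median signal (log2) per array of the 47 class I receptors (left) and of all 14232 genes (right), Klotho arrays as circles and control arrays as squares, on axes of equal span. Control array 1 is lowest on the left (3.39) and highest on the right (6.66), and Klotho array 1 is highest on the left (3.67) and lowest on the right (6.53).

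The receptors varied more between replicate arrays than other genes of like signal. The within-group SD, pooled over both groups, had a median of 0.24 over the receptors (quartiles 0.17 and 0.30) and of 0.12 over all genes, and 43 of the 47 receptors lay above that gene median. Against other genes of all spans, the larger spread held at 3 levels with enough receptors. At signals from 2 to 3 the median SD was 0.25 for 14 receptors, against 0.11 for 665 genes that are no olfactory receptors. From 3 to 4 it was 0.27 for 17 receptors, against 0.13 for 1111 other genes, and from 4 to 5 it was 0.22 for 13 receptors, against 0.13 for 1455 others. Only 3 receptors lay from 5 to 6, with 0.15 against 0.12.

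Other families of receptor and structural genes had values near this. The median SD was 0.25 over the 173 class II olfactory receptors, 0.29 over 30 taste, trace amine and vomeronasal receptors and 0.25 over 34 keratin-associated protein genes. Gene span in RefSeq moved with the SD among other genes. Genes in the receptors' range of signal with a span under 2 kb had a median SD of 0.22 (250 genes), against 0.12 for those of 2 kb or more (3997 genes). By level, other genes under 2 kb had 0.22 from 2 to 3 and 0.24 from 3 to 4, against 0.25 and 0.27 for the receptors. From 4 to 5 they had 0.23 against 0.22, and from 5 to 6 they had 0.18 against 0.15. Of the receptors, 24 span under 2 kb, whereas 4.48% of all genes do. The annotated spans of the receptors ran from 933 to 79760 bases and are not transcript lengths. Within the receptors the order was not the same: the median SD was 0.22 for those 24 and 0.27 for the 23 of 2 kb or more. The number of probes behind each value was not used here, and its part in the spread was not tested.

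**Figure D3:**
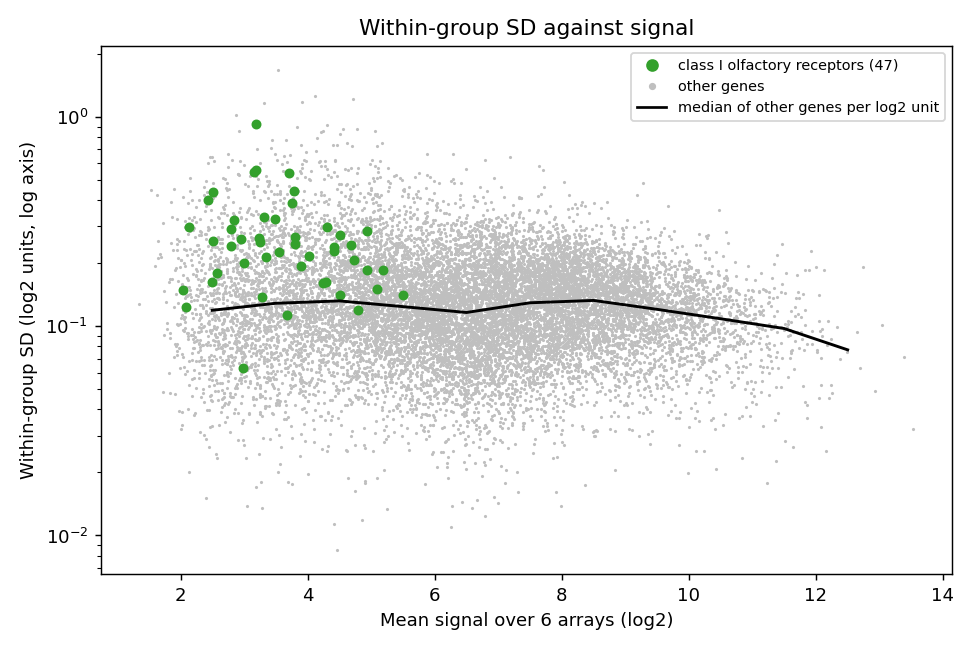
Within-group SD (log2 units, on a log axis) against mean signal over 6 arrays (log2), with the 47 class I receptors in green, other genes in grey and a line through the median of the other genes in each log2 unit. The receptors' median SD is 0.24, and 43 of 47 lie above the median of all genes, 0.12.

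Single receptors show the extent of this spread. OR52B4 had the largest SD: it read 3.12, 2.98 and 3.04 on the Klotho arrays, against 4.66, 3.33 and 2.04 on the control arrays. The 3 control values straddle all Klotho values, and the difference of -0.30 (95% interval -1.74 to 1.15) turned to 0.36 without control array 1. OR56A1 was next, at 3.95, 3.74 and 3.127 on the Klotho arrays, against 2.53, 3.52 and 2.26 on the control arrays. OR52A1 had the smallest SD, 0.06, with 2.86, 2.87 and 2.88 on the Klotho arrays, against 2.99, 3.11 and 3.17 on the control arrays. The distance from a receptor's lowest to its highest array had a median of 0.69, and 11 of 47 spanned more than 1 log2 unit.

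Pairs of arrays give another view of the spread, without a model. The SD over the 47 receptors of the log2 difference between 2 arrays averaged 0.46 over the 9 pairs of a Klotho with a control array, against 0.40 over the 3 pairs within Klotho and 0.46 over the 3 pairs within control. By this SD a Klotho and a control array differed about as much as 2 control arrays. Single receptors weigh on it, such as OR52B4 at 4.66 and 2.04 on control arrays 1 and 3. The median absolute difference over the receptors ran from 0.20 to 0.37 in the pairs between groups. It ran from 0.19 to 0.26 within Klotho and from 0.20 to 0.27 within control. Over all genes the averages of the SD were 0.22, 0.23 and 0.24, in the order given for the receptors.

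The comparison of Klotho with control cells asked whether any receptor moved with the treatment. None passed: 0 of 47 had an adjusted p under 0.05 in limma, as did 0 of all 22011 probe sets did (0%), and the smallest adjusted p of a receptor was 0.998. Before adjustment, 8 of 47 receptors (17%) had a p under 0.05, against 2.07% of all genes. Of these 6 were higher with Klotho, against 0.963% of all genes, and 2 lower, against 1.11%. Leaving out Klotho array 1 gave 4 (1.58% of all genes), control array 1 gave 4 (1.64%) and control array 3 gave 5 (1.85%). Leaving out Klotho array 2 gave 8 (1.31%), Klotho array 3 gave 9 (3.69%) and control array 2 gave 9 (2.92%). With all arrays, 20 of 250 other genes (8%) of the same signal range and a span under 2 kb had such a p. Of those of 2 kb or more it was 3.127%. Among the receptors it was 3 of 24 under 2 kb (12.5%) and 5 of 23 of 2 kb or more (21.7%). The receptors' larger SD stands beside these shares, and its part in them was not tested.

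Groups that did not overlap were also counted. The 3 Klotho values lay above all control values in 7 receptors (14.9%), where 2.59% of all genes did so, and below them in 3 receptors (6.38%), where 5.3% of all genes did. Among genes that are no olfactory receptors but lie in the same range of signal, the shares were 6.12% higher and 3.21% lower. The share of higher receptors lay above both backgrounds, and that of lower receptors rests on 3 genes. Klotho values also lay above all control values in 5 of 34 keratin-associated protein genes and 3 of 17 olfactory transduction genes. They did so in 8 of 173 class II receptors and 0 of 30 taste, trace amine and vomeronasal receptors. Over both directions, 10 of 47 receptors did not overlap as deposited (7.89% of all genes), with median centring (7.01%) and with quantile normalization (6.16%). With cyclic loess it was 7, with 6.65% of all genes. Differences beyond 1.5-fold in either direction, 0.585 on the log2 scale, were seen in 3 receptors (6.38%), against 0.33% of all genes. The 3 receptors were OR56A1, OR52N2 and OR51T1. In the same range of signal such differences were seen in 11 of 250 other genes with a span under 2 kb (4.4%), against 1 of the 24 receptors of that span (4.17%). For spans of 2 kb or more they were seen in 20 of 3997 other genes (0.50%), against 2 of 23 receptors (8.70%).

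**Figure D4:**
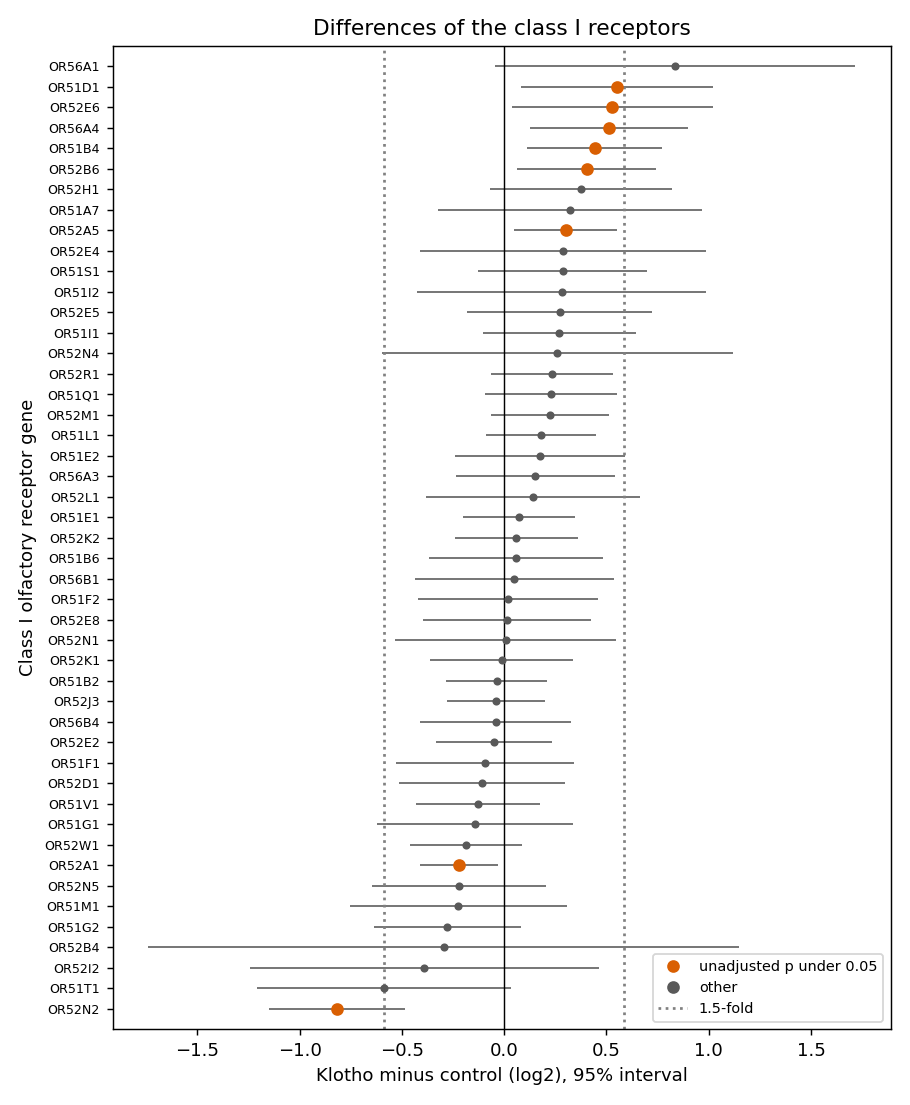
Klotho minus control difference (log2) of each of the 47 class I receptors with its 95% interval from limma, coloured where the unadjusted p is under 0.05 and with dotted lines at 1.5-fold. The 8 coloured receptors hold 6 positive and 2 negative differences, and OR52N2 at -0.82 is the lowest of all.

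OR52N2, whose window is printed above, had the smallest p of the receptors. It read 4.68, 4.28 and 4.62 on the Klotho arrays, against 5.19, 5.34 and 5.50 on the control arrays. All Klotho values lay below all control values. The difference was -0.82 (95% interval -1.15 to -0.49) with an SE of 0.14, an unadjusted p of 0.000791 and an adjusted p of 0.998 in limma. It ranged from -0.89 to -0.70 when each array was left out in turn. An exact permutation test of 3 against 3 arrays cannot give a two-sided p below 0.1. At 4.53 with Klotho and 5.34 in control, both group means stayed within the band of the other receptors.

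The other lower receptors with the smallest p were OR52A1, OR51T1 and OR51G2. OR52A1 differed by -0.22 (95% interval -0.41 to -0.03), with its values given above. OR51T1 read 3.85, 2.93 and 3.58 on the Klotho arrays, against 3.80, 3.99 and 4.33 on the control arrays. One Klotho array overlapped the controls, and the difference was -0.59 (95% interval -1.21 to 0.03). It was -0.33 without Klotho array 2, no longer beyond 1.5-fold. OR51G2 read 4.74, 4.76 and 4.26 on the Klotho arrays, against 4.82, 4.94 and 4.84 on the control arrays, a difference of -0.28 without overlap.

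The higher receptors with the smallest p were OR51B4, OR56A4, OR52A5 and OR52B6. OR51B4, beside the globin genes, read 5.50, 5.33 and 5.39 on the Klotho arrays, against 5.003, 5.19 and 4.70 on the control arrays. The groups did not overlap, and the difference was 0.44 (95% interval 0.11 to 0.77). OR56A4 read 4.09, 3.86 and 3.49 on the Klotho arrays, against 3.35, 3.37 and 3.19 on the control arrays, a difference of 0.51 (95% interval 0.12 to 0.90). Its relative OR56A1, next to it on the chromosome, differed by 0.83 with overlapping groups (95% interval -0.05 to 1.72), and OR56A3 by 0.15.

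OR52A5 lay near the bottom of the band. OR52A5 read 2.27, 2.06 and 2.36 on the Klotho arrays, against 1.89, 1.87 and 2.03 on the control arrays. The groups did not overlap, and the difference was 0.30.
OR52B6 read 4.08, 3.90 and 4.31 on the Klotho arrays, against 3.67, 3.88 and 3.52 on the control arrays, a difference of 0.40. OR52E6, at the floor of the band, read 2.10, 2.31 and 2.81 on the Klotho arrays, against 1.67, 1.87 and 2.09 on the control arrays, a difference of 0.53. OR51D1 differed by 0.55, also without overlap. Each of these had an adjusted p of 0.998 in limma.

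By sign, 29 of the 47 receptors were higher with Klotho and 18 lower, with a median difference of 0.06, whereas 37.4% of all genes were higher and their median was -0.03. Genes that are no olfactory receptors but fall in the same range of signal had 57.2% higher and a median of 0.02. The scaling of the arrays moved the split. It was 33 higher of 47 receptors with median centring (57.3% of all genes higher), 29 with quantile normalization (53.2%) and 26 with cyclic loess (49.7%). The receptors' median lay above that of all genes by 0.09 as deposited and with median centring, by 0.07 with quantile normalization and by 0.04 with cyclic loess. The SD of the receptor medians among the arrays of a group, pooled, was 0.09.

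The receptors' differences were larger than those of other genes of like signal. The absolute difference had a median of 0.22 over the receptors, against 0.08 over other genes in their range of signal and 0.07 over all genes. Its 95th percentile was 0.58 over the receptors, against 0.30 in that range and 0.25 over all genes. For spans under 2 kb it was 0.52 over receptors, against 0.54 over other genes in that range. For spans of 2 kb or more it was 0.79 against 0.28. The class II receptors had 0.52, the keratin-associated protein genes 0.47, and the taste, trace amine and vomeronasal receptors 0.76. Only 47 of the 14232 genes (0.33%) differed by more than the receptors' 95th percentile. By more than the largest receptor, OR56A1, 8 genes differed, and 0 of them passed the adjusted threshold. The 95% interval lay within 1.5-fold in either direction for 23 of 47 receptors (48.9%), against 91.7% of all genes, and within 2-fold for 39 (83.0%), against 98.7%. Over the class II receptors these shares were 47.4% and 87.9%.

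Other families known mainly from other tissues overlapped the band in part. The 173 class II olfactory receptors had a median signal of 3.28 and a range of 1.64 to 5.95, and 3 of them lay above OR52W1, the highest class I receptor: OR2Z1 (5.95), OR2B11 (5.94) and OR4C12 (5.54). Of 30 taste, trace amine and vomeronasal receptors 2 lay above it, the amino acid taste receptor gene TAS1R1 (6.88) and the bitter receptor gene TAS2R41 (5.78). Of 34 hair keratin-associated protein genes, whose median was 4.63, 9 did, led by KRTAP5-1 (7.93) and KRTAP12-4 (7.13). Of all genes 9687 (68.1%) had a signal above OR52W1.

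**Figure D5:**
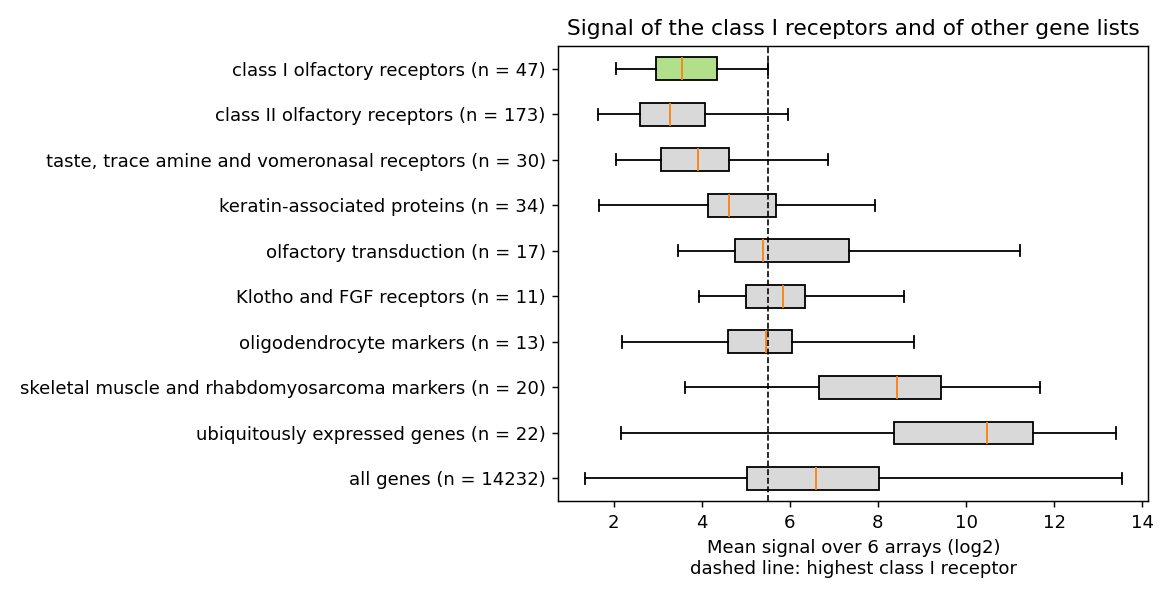
Mean signal over 6 arrays (log2) of the class I receptors and of 9 other sets of genes, with the median, quartiles and full range of each, and a dashed line at the highest class I receptor (5.50). The class I and class II receptors have medians of 3.56 and 3.28, against 6.59 for all genes and 10.5 for ubiquitously expressed genes.

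The ubiquitously expressed genes lay above the band with 2 exceptions. Of 22 measured, 20 were above OR52W1, led by the glycolytic enzyme genes LDHA (13.4) and ENO1 (12.9) and the actin gene ACTB (12.7). The purine salvage gene HPRT1 read 2.17 and the tubulin gene TUBA1B 3.54, each on its single own probe set. TUBA1B had a within-group SD of 1.68 and is also named on 2 probe sets shared with other genes. A reading inside the receptors' band therefore does not show that a gene is silent.

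Genes that olfactory neurons use with their receptors were mixed. Of 8 markers of those neurons 5 were measured, and 2 were above OR52W1: GNAL, the olfactory G protein subunit, at 5.77 and RTP1, a chaperone of odorant receptors, at 5.52. The margin of RTP1 was small, at 5.523 against 5.503 for OR52W1. The SD of RTP1 was 0.27 with Klotho and 0.15 in control. The channel gene CNGA2 (4.38), the G protein gene GNG13 (4.95) and OMP, the olfactory marker protein gene, were within the band. OMP averaged 4.17 ± 0.42 with Klotho and 3.34 ± 0.24 in control (SD, n = 3 each), a difference of 0.83 with a limma adjusted p of 0.998.

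Of the wider transduction list 8 of 17 measured genes were above OR52W1, and 7 were above all receptors on every array. The list was led by GNB1 (11.2), REEP1 (8.77) and SLC12A2 (8.37), which serve many cell types. Of 10 genes tied to receptor choice in olfactory neurons 8 were above OR52W1, led by the heterochromatin genes CBX5 (10.2) and LBR (10.2). The transcription factor genes of this list were split. LHX2 (7.24), BCL11B (6.21) and ATF5 (6.16) were above OR52W1, whereas EBF1 (5.08) and EMX2 (4.42) were within the band. In both lists 0 genes passed the adjusted threshold.

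Set against the same line, markers of the labelled cell type were only in part above the receptors. Of 13 measured oligodendrocyte markers 6 were above OR52W1: CNP, CLDN11, CSPG4, MYRF, OLIG1 and SOX10. MBP (5.27), MAG (5.33) and MOG (4.59), which encode myelin proteins, and OLIG2 (5.46) were within the band. Of 20 skeletal muscle and rhabdomyosarcoma markers 18 were above it, led by CHRNA1 and ACTC1 (11.7 and 11.6). Of 11 Klotho and FGF genes 6 were above it, among them FGFR4 (8.59) and FGFR1 (7.31), whereas KL, the human Klotho gene, read 3.94 and KLB 4.65. These positions rest on probe sets of different strength and do not call a gene present or absent.

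All 47 receptors map to chromosome 11 in RefSeq, in 1 stretch with 15 other protein-coding genes between the first and the last receptor. Of those 15 genes 6 had a probe set of their own, and 2 were above OR52W1: TRIM68 (7.41) and TRIM21 (6.34), both of the tripartite motif family. The beta-globin gene HBB (4.58), the antiviral gene TRIM22 (4.14), UBQLNL (3.73) and the metalloprotease gene MMP26 (2.96) were within the receptors' band. RRM1, the ribonucleotide reductase gene that lies outside the stretch, read 11.3.

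Neighbouring receptors did not share a direction more often than not. Of 46 pairs of receptors next to each other in this order 20 had differences of the same sign. OR52N2 lies between OR52N1 and OR52E6, which differed by 0.01 and 0.53, whereas OR52N2 itself differed by -0.82. The related OR52N4 and OR52N5 differed by 0.26 and -0.22. The interval of OR52N5 (-0.65 to 0.21) overlaps that of OR52N2, and differences between these genes were not tested. Close relatives can bind each other's probes, and the deposited values do not separate such binding.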

How the data were processed

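Transcript levels were measured on 6 arrays of MO3.13 cells, 3 with Klotho and 3 control, grouped by sample title, from 100 ng of total RNA amplified and biotinylated per the labels' protocols. The authors deposited log2 values, 1 per probe set and array, and RMA is named per the submitters' processing notes, without a version. Software, annotation and filters: not given in the sources used here. Gene names came from the platform annotation: 14432 probe sets had 1 symbol, 2408 several and 5171 none, and a gene took its own probe set of highest mean over the 6 arrays. All 47 members matched RefSeq (GRCh38.p14) by Entrez number.

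All 22011 probe sets entered 1 fit with limma 3.58.1 under R 4.3.3 (lmFit and eBayes, two-sided, Benjamini-Hochberg over all probe sets, threshold 0.05), and the fit was tested on simulated data. The within-group SD is the residual SD of that fit. Levels, counts and gene lists are descriptions without a test. The members and lists were chosen with earlier results of these data known. Named members are the 4 in each direction of smallest p, the 3 highest and 3 lowest, the 2 with the largest and smallest SD (OR52J3, at 3.68, is the second of the smallest), and OR52N2, OR51E1, OR51E2, OR51B4 and OR51B5. From each other list the rule names the 4 highest and the 2 of smallest p, and further genes (such as HPRT1, KL, TRIM21 and the cell type markers) were named after their values were seen. Arrays give no read depth, and their number limits the precision. No intensities, detection calls or scan batches were used. Alternatives were 3 other scalings, leaving out dim probe sets, a variance trend, a robust prior, array weights, the replicate number as a block, other choices of probe sets and members, and leaving out each array.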

Additional observations from a re-analysis of the deposited data

How the results depend on the processing

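Under the 17 alternatives 0 receptors passed the adjusted threshold, and the smallest adjusted p of a named receptor was 0.368 (OR52N2, array quality weights). Leaving out each array in turn gave 4 to 9 receptors at an unadjusted p under 0.05 (8 with all arrays), with 1.31% to 3.69% of all genes, and 12 to 18 without overlap between groups (10 with all arrays), while 13.3% to 24.3% of all genes then did not overlap, against 7.89% with all arrays. Smaller groups overlap less by construction. With probe sets (named or not) under their lower quartile of mean signal left out, 7 receptors remained, of which 3 had an unadjusted p under 0.05 (1.82% of all genes kept) and 4 did not overlap (7.42%). Their median difference was -0.037, their median level 4.94 and the 95th percentile of their levels 5.41, since that filter removes low receptors by construction. Deviations of same-numbered arrays from their group means correlated at -0.176, 0.0637 and -0.139, and those of differently numbered arrays at -0.13 to 0.237. With 3 arrays per group these correlations cannot show whether the arrays were paired, and the labels give only replicate numbers. With the replicate number as a block 8 receptors had an unadjusted p under 0.05, 7 higher and 1 lower, with 1.26% of all genes, and 0 passed. With array quality weights it was 10, with 5.49% of all genes. When an array was left out, the receptors' median SD was 0.20 to 0.24 and the genes above the highest receptor 9591 to 9763. Of 277 differences of named receptors under the alternatives 31 moved by over 1.5 times, such as OR52A5 (0.17 with array weights), and 7 of these changed sign. With array weights OR52B4 was 0.25 and OR52E2 0.0363, and with median centring OR52J3 was 0.0091. Leaving out 1 array gave -0.95 to 0.36 for OR52B4, -0.109 to 0.0669 for OR52E2, -0.0877 to 0.0452 for OR52J3 and -0.0172 to 0.144 for OR51E1. The cause was not tested. No background was measured in the values used here, so probe sets inside or below the receptors' band cannot be told from background.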

Other observations

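The 8 genes that differed by more than the largest class I receptor had mostly dim probe sets. STX19 (-1.16), NPM1 (-1.05), the class II receptor OR10H3 (-0.99), the metallothionein gene MT1G (-0.87) and the bitter receptor TAS2R50 (-0.86) were lower with Klotho, and the melanocortin receptor MC4R (0.84), LOC285097 (1.03) and TAF1A (1.14) higher, all on the log2 scale and named after their values were seen. Their mean signals ran from 2.66 for MC4R to 5.11 for MT1G, inside the range of the class I receptors. As with HPRT1 and TUBA1B, such a reading, as that of NPM1 at 2.85, does not show that a gene is silent. The within-group SD was 0.52 for STX19, 0.53 for OR10H3, 0.54 for MT1G, 0.86 for TAS2R50 and 0.87 for TAF1A, and 0.16 for NPM1. None passed the adjusted threshold in limma, and the smallest adjusted p was 0.395 for NPM1.

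Among 173 class II receptors 18 had an unadjusted p under 0.05 (10.4%, against 2.07% of all genes), 11 of them higher and 7 lower with Klotho, and 0 passed. OR10K2 averaged 2.57 with Klotho and 2.08 in control, and OR2AE1 5.21 with Klotho and 4.70 in control. Of 34 keratin-associated protein genes 5 had an unadjusted p under 0.05, and of 30 taste, trace amine and vomeronasal receptors 1 did.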
